A study of Homo sapiens with 12 samples.

Results

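The genes described here build and hold together epithelial cell contacts. They are the cadherins and protocadherins, the claudins, the keratins, the connexins of the GJA and GJB series, the desmosomal cadherins, the plakophilins, the tight junction proteins of the TJP series, DSP, JUP, OCLN, EPCAM and VIM. They were chosen by symbol from the genes that the authors' deposited tables list, with earlier results of these data known. In all, 29 of the 5308 genes listed in any of the 3 tables met the rule, out of 201 protein-coding symbols in GENCODE 29 that match it. The tables list only genes that passed the authors' own test, so a gene of these families with no row has no value here and was not analysed. That holds for EPCAM, OCLN, DSP, CDH2, KRT7, KRT8 and KRT18.

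RNA was sequenced from 12 libraries of KKU-213A, an established human line of cholangiocarcinoma (bile duct cancer) with papillary and non-papillary features, with 3 libraries in each of 4 groups. Lactic acidosis cells were adapted in steps to low-glucose medium at pH 6.7 that held L-lactate (25 mM) with HEPES buffer (25 mM). Lactosis cells had 25 mM L-lactate at pH 7.4, and acidosis cells had 25 mM HEPES at pH 6.5. All 3 treated groups were kept in their medium for at least 5 passages. Control cells were untreated and grew in the same low-glucose medium, whose pH the labels do not give. The labels give no number of passages for the controls, so time in culture and treatment cannot be told apart against control. The acid media held HEPES and the labels give none for the controls or for lactosis. Acid and buffer thus cannot be told apart against control or against lactosis, and all groups are 1 cell line. The labels do not say that replicates were separate cultures, so p-values measure only the spread between these libraries, which may be technical.

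Epithelial cells are joined by several kinds of contact. Adherens junctions are built on E-cadherin, and desmosomes on desmogleins and desmocollins that are tied through plakoglobin and plakophilins to keratin filaments. Tight junctions seal the space between cells with claudins held by the ZO scaffolds, and gap junctions pass small molecules through connexin channels. Keratins form filaments from a type I and a type II partner, and bile duct cells are known for keratins 7, 8, 18 and 19.

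Sequences are printed for 2 members whose values changed in the same direction in all 3 treatments, the gap junction gene GJA1 and the basal keratin gene KRT5. They are the 250 bases before the transcription start as RefSeq gives it on GRCh38.p14, at chr6:121435396-121435645 on the plus strand for GJA1 and at chr12:52520395-52520644 on the minus strand for KRT5. Capitals mark a match to the AP-1 motif TGANTCA in GJA1 and to the E-box CAGGTG in KRT5.
GJA1: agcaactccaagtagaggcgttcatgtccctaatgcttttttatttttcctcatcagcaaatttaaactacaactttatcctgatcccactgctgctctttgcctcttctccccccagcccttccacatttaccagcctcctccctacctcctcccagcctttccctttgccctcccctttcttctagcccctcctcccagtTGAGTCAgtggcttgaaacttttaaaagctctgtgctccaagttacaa
KRT5: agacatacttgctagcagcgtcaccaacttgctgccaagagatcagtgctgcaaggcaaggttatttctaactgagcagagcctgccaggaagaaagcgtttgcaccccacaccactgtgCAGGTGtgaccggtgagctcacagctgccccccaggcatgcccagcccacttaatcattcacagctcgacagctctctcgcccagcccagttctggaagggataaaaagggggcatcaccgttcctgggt

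The promoter table matched 14 of the 29 members, with 23 windows of this length. The AP-1 motif, searched on both strands, was in 2 of the 23 windows (8.70%), against 6.57% of all 35116 windows in the table. The members with it were GJA1 and CDH18. The E-box CAGGTG, also searched on both strands, was in 4 of the 23 (17.4%), against 17.5% of all windows, and the members with it were KRT5, TJP1, JUP and TJP3. The AP-1 and E-box shares lie near those of all promoters, and a match describes the letters and not a bound site. Other motifs were also searched. The GC-box GGGCGG was in 13 of the 23 windows (56.5%), against 42.6% of all windows. The CRE motif TGACGTCA was in 1 window (4.35%), against 1.65%. The GRHL motif AACNGGTT and the TATA motif TATAAA were in 0, against 1.49% and 10.7%. These differences were not tested.

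The deposited per-library values are expression values scaled by gene length and by library, so they can be compared between genes, but the tables do not say whether they are TPM or FPKM. In control cells the members ranged from 0.080 (CLDN6) to 3791 (KRT19), and their order of level began with KRT19, KRT17 at 632, plakoglobin (JUP) at 239, CDH3 at 115 and CDH1 at 81.3. CDH1, CDH3, PKP2 and KRT80 lay close together, between 71.4 and 115, and the other 22 members were at 31.7 or less. Of 10 markers of biliary epithelium, 4 had a row in any table, and the others could not be read. The members KRT19 and CDH1 were high in control cells, while SOX9 read 6.41, 12.2 and 17.3 and MUC1 read 2.30, 2.20 and 1.41. In lactic acidosis SOX9 rose by a log2 difference of 1.53 (limma adjusted p = 0.00183) and MUC1 fell by 1.14 (0.000449), and MUC1 also fell in lactosis by 0.72 (0.00630).

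The 3 treatments moved these genes both ways. In lactic acidosis 24 members were listed, 13 higher and 11 lower than in control cells, beside 58.9% higher and 41.1% lower over all 4279 listed genes. In lactosis 14 were listed, 6 higher and 8 lower, beside 59.3% and 40.7% over 3087 genes. In acidosis 12 were listed, 5 higher and 7 lower, beside 61.1% and 38.9% over 1721 genes. The listed members had larger fold changes than the listed genes as a whole, but this comparison was not matched for expression level. In lactic acidosis 7 of the 24 members had authors' mean counts under 100 in both groups, and each of these differed at least 2-fold. In the authors' deposited table, 15 of the 24 members in lactic acidosis differed at least 2-fold, against 26.3% of all listed genes, and 9 of 14 did so in lactosis, against 21.1%. In acidosis the count was 5 of 12, against 12.6%. The median size of the log2 fold change in the authors' deposited table was 1.21 for members and 0.67 for all listed genes in lactic acidosis, 1.17 and 0.62 in lactosis, and 0.83 and 0.51 in acidosis.

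Each value was also tested with limma on log2(value + 1), with Benjamini-Hochberg adjustment over all genes of the table, and "rose" and "fell" are used only for an adjusted p under 0.05. Differences printed beside such a p are on the log2(value + 1) scale, which understates the change of low genes. Past limma were 22 of the 24 members in lactic acidosis (all listed genes 86.1%), 10 of 14 in lactosis (77.7%) and 8 of 12 in acidosis (60.0%). The last was 5 of 12 without acidosis replicate 2, a setting for which the share over all listed genes is not given. Groups did not overlap for 21 of the 24 members in lactic acidosis (90.2% of all listed genes), 11 of 14 in lactosis (84.0%) and 8 of 12 in acidosis (75.5%). These shares are near the background, and the same libraries had already selected the genes. The 3 comparisons share the 3 control libraries, so their results are not independent of each other. Of the 29 members 7 were listed in all 3 tables, 3 higher in each, among them CLDN11 and GJA1, and 4 lower in each, which were CDH8, DSG3, JUP and KRT5.

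**Figure D1:**
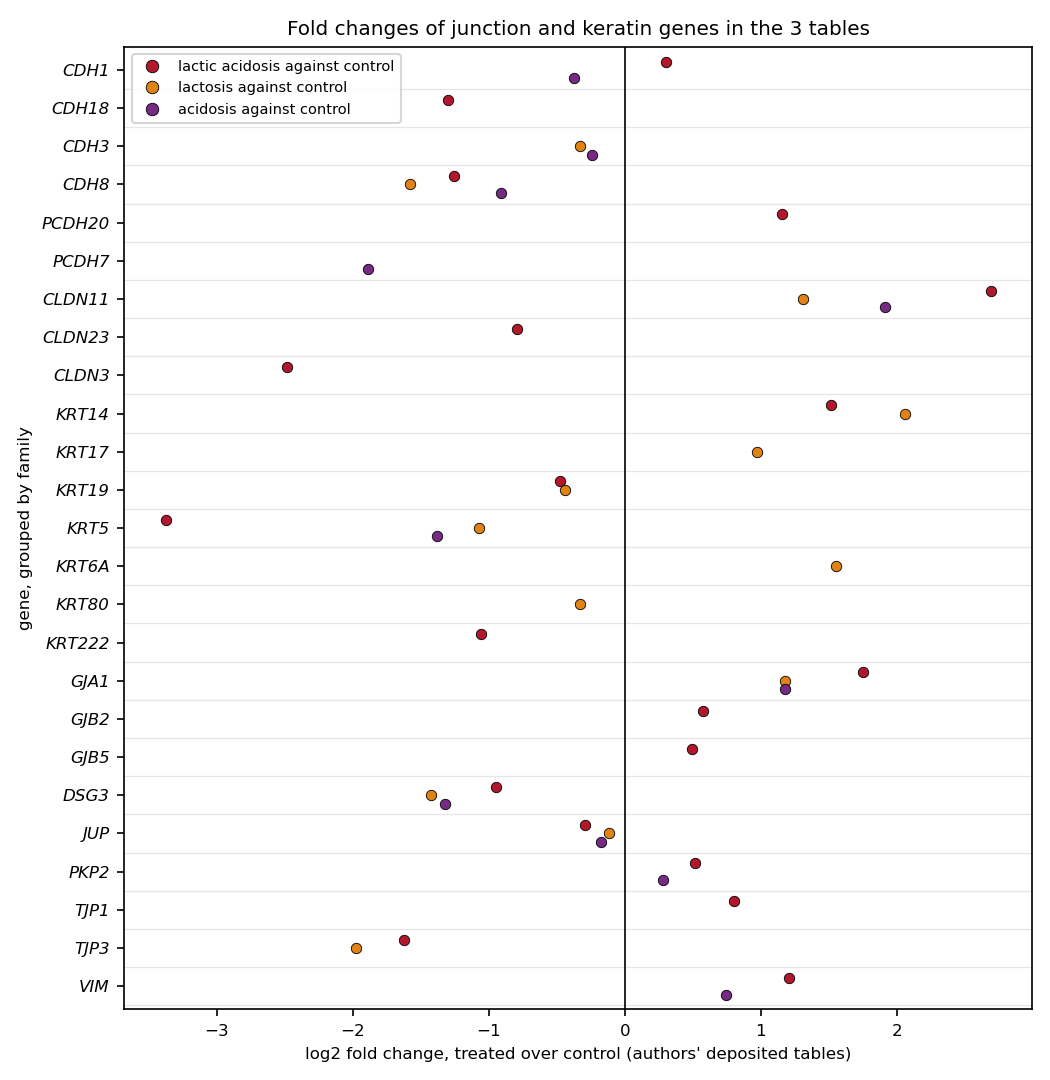
Log2 fold change of treated over control in the authors' deposited tables (horizontal axis) for 25 members grouped by family, with 1 point for each table that lists the gene. GJA1, GJB2 and GJB5 sit right of 0 wherever listed and KRT5, DSG3, CDH8 and JUP left of it, while PCDH10 and CLDN6 are not drawn because 1 of their groups was at or near 0.

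Among the classical cadherins, E-cadherin (CDH1), the core adhesion protein of adherens junctions, differed in direction between acid with lactate and acid without it. CDH1 read 99.5, 118 and 107 in lactic acidosis libraries, against 68.5, 86.4 and 89.1 in control libraries. Every lactic acidosis library was above every control library, and CDH1 rose by a log2 difference of 0.41 (limma adjusted p = 0.0288), or by 0.30 on values rescaled by the library weights given below (0.0121). In acidosis it read 78.7, 58.9 and 52.7 against the same controls. The groups overlapped, through acidosis replicate 1 and control replicate 1, and the log2 difference of -0.36 did not pass (limma adjusted p = 0.0878), although the authors' deposited table lists CDH1 as lower. The rise in lactic acidosis was not past the threshold when lactic acidosis replicate 1, 2 or 3 was left out (adjusted p = 0.0527, 0.105 and 0.0788), and the difference in acidosis passed without control replicate 1 (log2 difference -0.48, limma adjusted p = 0.0234) and on rescaled values (-0.38, 0.00879), where the groups did not overlap.

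P-cadherin (CDH3), a cadherin of basal epithelial layers whose gene lies beside CDH1 on chromosome 16, was listed lower in lactosis and acidosis and had no row in lactic acidosis. In lactosis its log2 difference was -0.29 (limma adjusted p = 0.0892), with no overlap between groups. In acidosis it was -0.23 (limma adjusted p = 0.200), with overlap. With control replicate 1 left out, both fell past the threshold (limma adjusted p = 0.0132 and 0.0407), as they did on rescaled values (0.00677 and 0.0264).

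Vimentin (VIM), the intermediate filament protein of mesenchymal cells, rose together with CDH1 in lactic acidosis. VIM read 8.03, 11.2 and 9.19 in lactic acidosis libraries and 5.57, 6.99 and 6.43 in acidosis libraries, against 3.07, 3.95 and 4.40 in control libraries. Neither treated group overlapped the controls, and lactic acidosis lay above acidosis. The log2 difference from control was 1.12 in lactic acidosis (limma adjusted p = 0.000687) and 0.61 in acidosis (0.0112). The rise in acidosis was not past the threshold without acidosis replicate 2 (0.0700). None of the 8 fibroblast markers had a row in any table, so their levels could not be read. In lactosis VIM had no row.

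CDH1 exceeded VIM in every lactic acidosis, acidosis and control library, by a smaller ratio in both acid groups. Lactosis has no value for either gene. Within a library CDH1 was 12.4, 10.5 and 11.6 times VIM in lactic acidosis and 14.1, 8.42 and 8.19 times VIM in acidosis, against 22.3, 21.9 and 20.3 times in controls. No treated library reached the control range. These ratios and the others below were picked after the values were seen and carry no test.

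CDH8 and CDH18 are classical-type cadherins known from the nervous system, and both were low here. CDH8 read 0.43, 0.68 and 0.58 in lactic acidosis, 0.34, 0.53 and 0.39 in lactosis, and 0.65, 0.65 and 0.68 in acidosis, against 0.94, 1.69 and 1.12 in control. All 9 treated libraries were below all 3 controls, and limma gave log2 differences of -0.51, -0.65 and -0.42 in that order (adjusted p = 0.0156, 0.00789 and 0.0421). The authors' mean counts behind CDH8 were between 17.1 and 57.3. The call in acidosis was lost when acidosis replicate 1, 2 or 3 or control replicate 2 was left out (adjusted p between 0.0979 and 0.203), and the call in lactic acidosis without lactic acidosis replicate 1 or control replicate 2 (0.0651 and 0.0604). CDH18 read 0.31, 0.88 and 0.74 in lactic acidosis, against 0.84, 1.65 and 1.97 in control, so that the groups overlapped. Its log2 difference of -0.59 passed limma (adjusted p = 0.0277), but not without lactic acidosis replicate 1 or 3 or control replicate 2 or 3 (adjusted p between 0.0526 and 0.112).

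Protocadherins, the larger and weakly adhesive branch of the family, had 3 listed members of 66 annotated. PCDH7 read 1.91, 1.43 and 1.61 in acidosis, against 2.42, 7.81 and 7.44 in control. All acidosis libraries were below the controls, with control replicate 1 well below the other controls, and PCDH7 fell by a log2 difference of 1.26 (limma adjusted p = 0.00366). PCDH10 was listed at 0 in all 3 lactic acidosis libraries, against 0.37, 0.32 and 0.44 in control. PCDH20 was below 1 in every library of the lactic acidosis table, and 95.7% of its 75-base windows are shared with another annotated gene, so its reads cannot be assigned with certainty.

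The 3 listed desmosomal genes did not move together. Desmoglein 3 (DSG3), an adhesive desmosomal cadherin, was the only one of 7 annotated desmogleins and desmocollins with a row. It read 14.7, 16.7 and 14.6 in lactic acidosis, 10.7, 9.22 and 11.4 in lactosis, and 13.4, 10.7 and 9.22 in acidosis, against 27.7, 31.7 and 21.5 in control. Every treated library was below every control library. DSG3 fell in lactic acidosis (log2 difference -0.76, limma adjusted p = 0.00381), in lactosis (-1.28, 0.000694) and in acidosis (-1.20, 0.000403).

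Plakoglobin (JUP), which links cadherins to the cytoskeleton in both desmosomes and adherens junctions, is the clearest case of a small listed difference. It read 196, 216 and 218 in lactic acidosis, 229, 215 and 230 in lactosis, and 225, 217 and 196 in acidosis, against 202, 261 and 256 in control. Control replicate 1 lay within the range of the treated libraries and the other controls lay above it. The log2 differences were -0.18, -0.08 and -0.16 in that order, and none passed limma (adjusted p = 0.252, 0.582 and 0.345). JUP passed in lactic acidosis and acidosis once control replicate 1 was left out (adjusted p = 0.0129 and 0.0444), and in lactic acidosis on rescaled values (0.0128).

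Plakophilin 2 (PKP2), the plaque protein that binds desmosomal cadherins and recruits desmoplakin, went the other way from DSG3. PKP2 read 106, 127 and 112 in lactic acidosis and 103, 89.3 and 82.8 in acidosis, against 57.5, 82.9 and 85.7 in control. On the deposited values lactic acidosis stood clear of the controls and acidosis overlapped them. PKP2 rose there by a log2 difference of 0.62 (limma adjusted p = 0.0116), though not past the threshold without lactic acidosis replicate 2 (0.0527). In acidosis the difference of 0.30 did not pass (0.144), while on rescaled values it was 0.28 and passed (0.0176), with no overlap.

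The ratio of plakoglobin to E-cadherin differed between the acid groups. JUP was 1.97, 1.83 and 2.03 times CDH1 in lactic acidosis and 2.86, 3.69 and 3.71 times CDH1 in acidosis, against 2.94, 3.02 and 2.87 times in control. Lactic acidosis lay below the control range in every library, and acidosis replicate 1 lay just below it while the other acidosis libraries lay above.

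At the tight junction, the scaffold proteins ZO-1 (TJP1) and ZO-3 (TJP3), which tether claudins to actin, changed in opposite directions in lactic acidosis. TJP1 read 51.3, 61.8 and 53.8 in lactic acidosis, against 21.3, 34.9 and 33.3 in control. All lactic acidosis libraries were above all controls, and TJP1 rose by a log2 difference of 0.90 (limma adjusted p = 0.00377). TJP3 read 3.56, 3.13 and 3.91 in lactic acidosis and 2.83, 2.92 and 2.06 in lactosis, against 11.02, 10.20 and 8.48 in control. No treated library reached the controls, and TJP3 fell in lactic acidosis (log2 difference -1.26, limma adjusted p = 0.000226) and in lactosis (-1.60, 0.000169). TJP1 had no row in lactosis or acidosis, and TJP3 none in acidosis. Within a library TJP1 was 14.4, 19.8 and 13.8 times TJP3 in lactic acidosis, against 1.94, 3.42 and 3.93 times in control.

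Of 24 annotated claudins, the membrane proteins that set the seal, 4 were listed, and their directions were mixed. CLDN11, known from myelin and from Sertoli cells of the testis, read 19.3, 24.1 and 20.6 in lactic acidosis, 7.76, 7.50 and 8.01 in lactosis, and 12.6, 11.2 and 11.1 in acidosis, against 0.91, 3.70 and 5.09 in control. All treated libraries exceeded all controls. CLDN11 rose in lactic acidosis (log2 difference 2.55, limma adjusted p = 0.000586), in lactosis (1.21, 0.0157) and in acidosis (1.73, 0.000863). Without control replicate 1 the difference in lactosis was 0.71 and still passed. Of its 75-base windows 24.6% are shared with another annotated gene.

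CLDN3, a sealing claudin of bile duct and other simple epithelia, read 1.13, 1.17 and 1.10 in lactic acidosis, against 7.64, 5.13 and 4.09 in control. It fell by a log2 difference of 1.60 with no overlap (limma adjusted p = 0.000255). The authors' mean counts behind CLDN3 were 11.9 in lactic acidosis and 66.6 in control. CLDN6, a claudin known from embryonic epithelium, read 2.09, 1.86 and 0.78 in lactic acidosis, against 0.00, 0.15 and 0.09 in control, too near 0 for a fold change. All 3 lactic acidosis libraries were above the controls (limma adjusted p = 0.00135). CLDN23 fell in lactic acidosis with a log2 difference of -0.57 (limma adjusted p = 0.00557), and neither CLDN3, CLDN6 nor CLDN23 had a row in lactosis or acidosis.

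**Figure D2:**
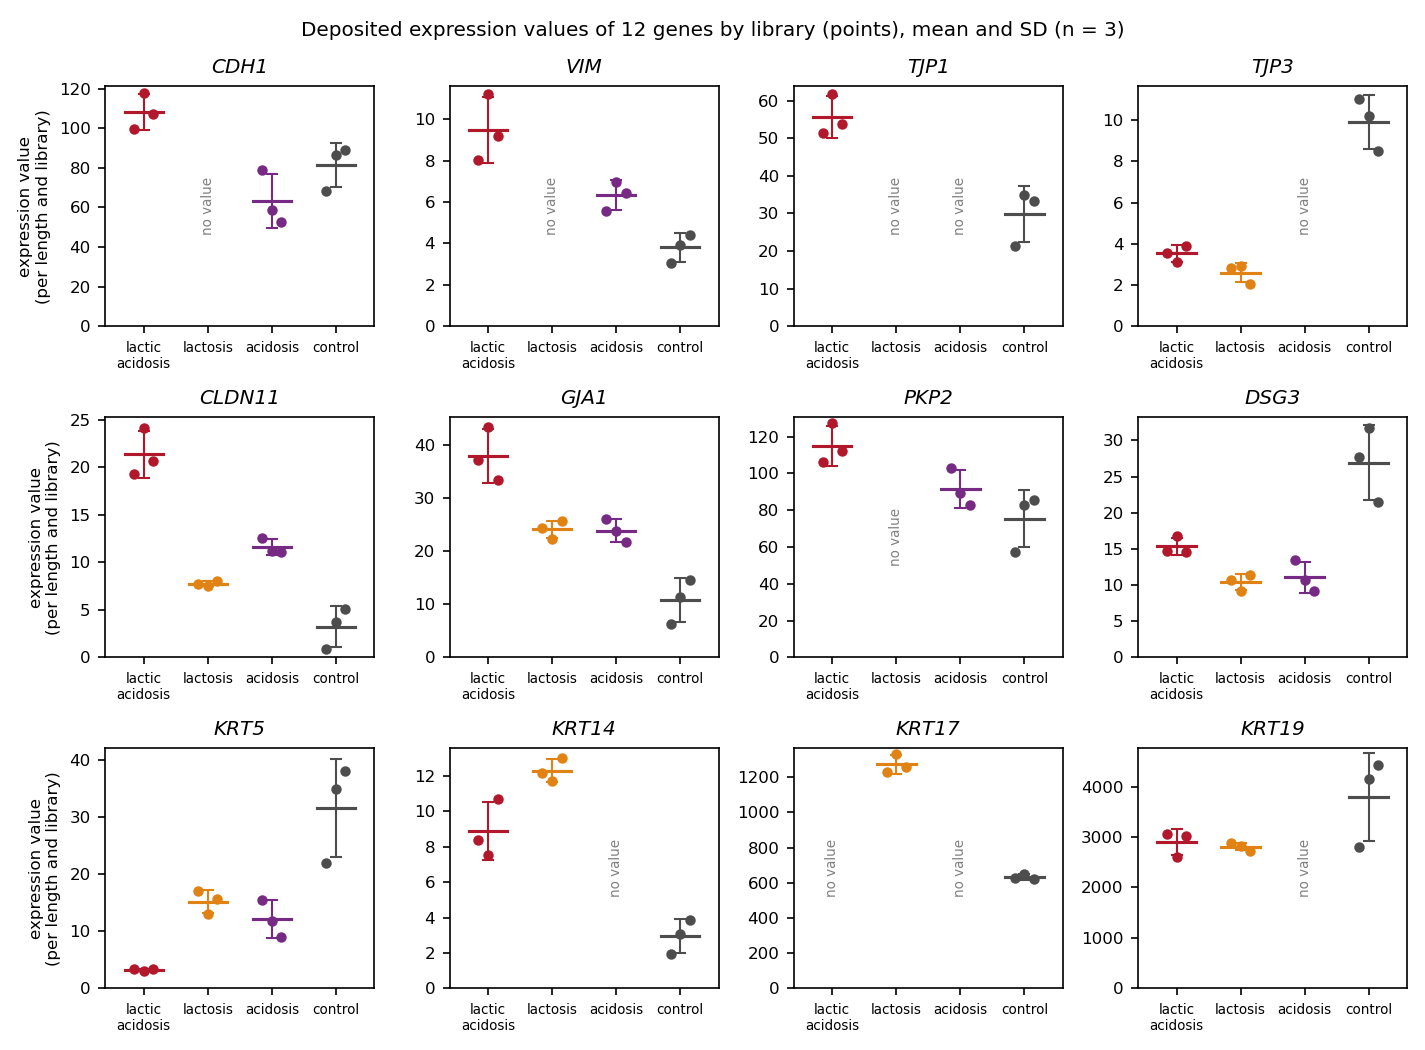
Deposited expression value (vertical axis, scaled by gene length and library) of 12 members in each library, with points for libraries and lines for mean and SD (n = 3) in lactic acidosis, lactosis, acidosis and control; "no value" marks a group whose table does not list the gene. CLDN11 and GJA1 lie above all controls in each treated group and DSG3 and KRT5 below, while KRT19 overlaps the controls in both groups shown.

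Every listed connexin was higher wherever it was listed. Connexin 43 (GJA1), the most widely expressed gap junction protein, whose promoter is printed above, read 37.1, 43.4 and 33.4 in lactic acidosis, 24.3, 22.4 and 25.6 in lactosis, and 26.1, 23.8 and 21.7 in acidosis, against 6.29, 11.4 and 14.5 in control. All 9 treated libraries exceeded the controls. GJA1 rose in lactic acidosis (log2 difference 1.79, limma adjusted p = 0.000593), in lactosis (1.16, 0.00459) and in acidosis (1.15, 0.00199).

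GJB2, connexin 26, and GJB5 each had a row in lactic acidosis only. GJB2 rose by a log2 difference of 0.59 (limma adjusted p = 0.0138) and GJB5 by 0.59 (0.00833), and the groups overlapped for neither. The call for GJB2 was lost without lactic acidosis replicate 2 (adjusted p = 0.0629). GJA1 lies at chr6:121435577-121449727 in GENCODE 29 on GRCh38. Of 14 annotated GJA and GJB genes 5 were listed, all 5 higher in lactic acidosis, beside 58.9% of all listed genes there.

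Among keratins, the basal partners KRT5 and KRT14 moved apart. KRT5, the type II keratin of basal epithelial cells, whose promoter is printed above, read 3.30, 3.04 and 3.37 in lactic acidosis, 17.0, 13.0 and 15.6 in lactosis, and 15.6, 11.9 and 9.05 in acidosis, against 21.9, 35.0 and 38.1 in control. All treated libraries were below all controls, and the lactic acidosis libraries were below all others. KRT5 fell in lactic acidosis (log2 difference -2.91, limma adjusted p = 3.6e-05), in lactosis (-0.98, 0.00488) and in acidosis (-1.30, 0.000782).

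KRT14, the type I partner of KRT5, moved the opposite way. It read 8.37, 7.55 and 10.7 in lactic acidosis and 12.2, 11.7 and 13.0 in lactosis, against 1.92, 3.09 and 3.84 in control. Neither treated group overlapped the controls, and KRT14 rose in lactic acidosis (log2 difference 1.34, limma adjusted p = 0.000832) and in lactosis (1.78, 0.000226). KRT14 had no row in acidosis. Within a library KRT14 was 2.54, 2.48 and 3.18 times KRT5 in lactic acidosis and 0.72, 0.90 and 0.84 times KRT5 in lactosis, against 0.088, 0.088 and 0.10 times in control. KRT14 shares 10.0% of its 75-base windows with another annotated gene, chiefly KRT16.

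KRT6A and KRT17 rose in lactosis. KRT6A, a type II keratin induced in wounded and proliferating epithelium, read 18.2, 16.3 and 24.0 in lactosis, against 4.11, 6.67 and 9.15 in control. It rose with no overlap by a log2 difference of 1.46 (limma adjusted p = 0.00178), and 26.2% of its windows are shared with other genes, KRT6C most. KRT17, a type I keratin, was the member with the second highest level in control cells. KRT17 ranged between 1228 and 1331 in lactosis, against 620 and 650 in control, and rose by a log2 difference of 1.01 (limma adjusted p = 0.000549). Neither KRT6A nor KRT17 had a row in lactic acidosis or acidosis.

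KRT19, a type I keratin of bile duct cells, had the highest level of all members. It read 3067, 2596 and 3013 in lactic acidosis and 2876, 2823 and 2729 in lactosis, against 2799, 4155 and 4419 in control. Control replicate 1 overlapped both treated groups and the other controls lay above them. The log2 differences of -0.37 and -0.40 in lactic acidosis and lactosis did not pass limma (adjusted p = 0.0900 and 0.0652), and both passed without control replicate 1 (0.000647 and 0.000720) and on rescaled values (0.00620 and 0.00565). KRT80, a type II keratin, was listed lower in lactosis with a log2 difference of -0.29 (limma adjusted p = 0.156) and overlapping groups, and passed without control replicate 1 (0.00665) and on rescaled values (0.0123). KRT222 fell in lactic acidosis (log2 difference -0.57, limma adjusted p = 0.0189) at levels under 3 in every library, not without lactic acidosis replicate 1 or control replicate 2 (0.0829 and 0.0734), and shares 57.1% of its windows with another gene.

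**Figure D3:**
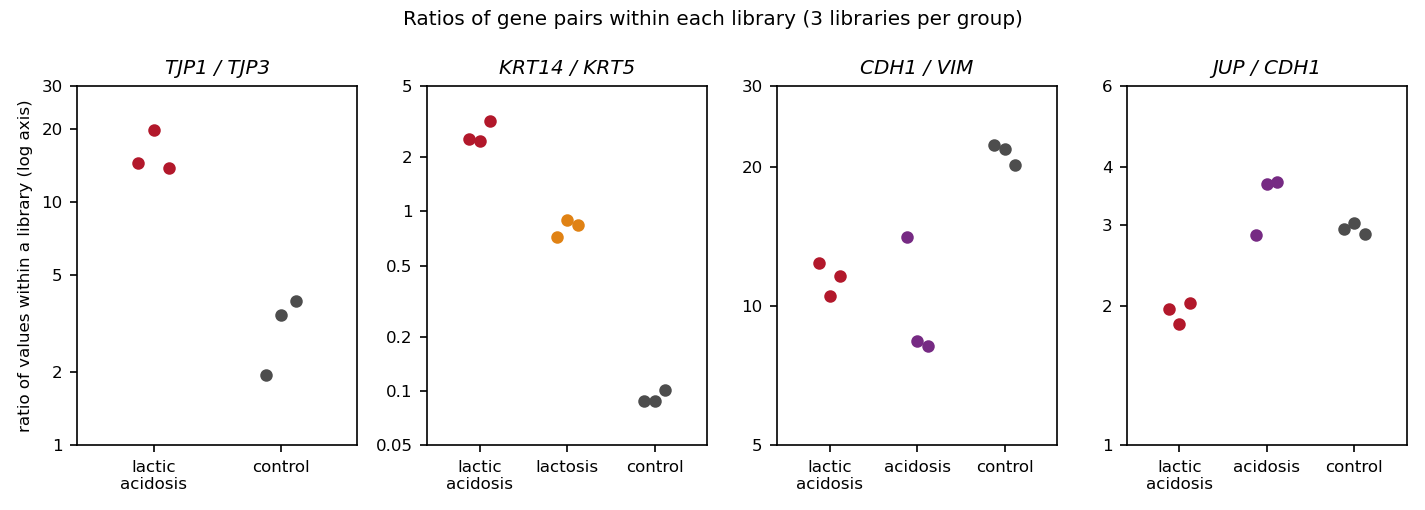
Ratio of the values of 2 genes in the same library (vertical log axis) for TJP1 over TJP3, KRT14 over KRT5, CDH1 over VIM and JUP over CDH1, with 1 point per library and 3 libraries per group. The TJP1, KRT14 and CDH1 ratios of all treated libraries shown lie outside the control range, and JUP over CDH1 is lower in lactic acidosis than in every control library.

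The treated groups were next set against each other. By the labels, lactic acidosis and lactosis differed in pH and in HEPES together, and lactosis and acidosis in lactate as well. A gene could be compared only where both tables list it, so the genes compared had been selected for differing from the same controls. Between lactic acidosis and lactosis 10 members could be compared, and 6 differed (limma, all 2344 genes compared 20.4%). Between lactic acidosis and acidosis it was 8 of 10 (48.8% of 1304 genes), and between lactosis and acidosis 2 of 8 (23.9% of 1173 genes).

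CLDN11 and GJA1 were higher in lactic acidosis than in either other treatment. CLDN11 was higher in lactic acidosis than in lactosis by a log2 difference of 1.35 (95% interval 1.14 to 1.55, limma adjusted p = 7.7e-06) and than in acidosis by 0.82 (0.000140), and was lower in lactosis than in acidosis by a log2 difference of -0.52 (0.00246). GJA1 was higher in lactic acidosis than in lactosis by 0.63 (0.00229) and than in acidosis by 0.65 (0.00114). Between lactosis and acidosis GJA1 differed by 0.02, with a 95% interval of -0.19 to 0.22 (limma adjusted p = 0.927), and by -0.0042 on rescaled values.

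E-cadherin differed between the acid groups themselves, whose media differed in lactate and also in pH. CDH1 averaged 108 ± 9.26 in lactic acidosis and 63.4 ± 13.6 in acidosis (SD, n = 3 each), a log2 difference of 0.78 with a 95% interval of 0.47 to 1.09 (limma adjusted p = 0.00155). All 3 lactic acidosis libraries were above all 3 acidosis libraries. VIM was higher in lactic acidosis than in acidosis by 0.51 (limma adjusted p = 0.00635), DSG3 by 0.45 (0.0134) and PKP2 by 0.33 (0.0253). The difference for DSG3 was lost without lactic acidosis replicate 2 or acidosis replicate 2 (adjusted p = 0.0552 and 0.0513), and that for PKP2 without lactic acidosis replicate 2 or 3 or acidosis replicate 2 or 3 (0.0544 to 0.0949).

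KRT5 was lower in lactic acidosis than in lactosis by a log2 difference of -1.93 (limma adjusted p = 2.2e-06) and than in acidosis by -1.61 (4.6e-05). KRT14 was lower in lactic acidosis than in lactosis (-0.44, limma adjusted p = 0.0214), not past the threshold without lactic acidosis replicate 1 or 2 or lactosis replicate 1 (0.0591 to 0.0886). DSG3 was higher in lactic acidosis than in lactosis by 0.52 (0.00418). JUP did not pass in any of the 3 comparisons, with intervals of -0.28 to 0.08 for lactic acidosis minus lactosis, -0.20 to 0.17 for lactic acidosis minus acidosis and -0.10 to 0.26 for lactosis minus acidosis. KRT5 between lactosis and acidosis differed by 0.32 (-0.09 to 0.73, limma adjusted p = 0.231), and passed without acidosis replicate 1 (0.0304).

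**Figure D4:**
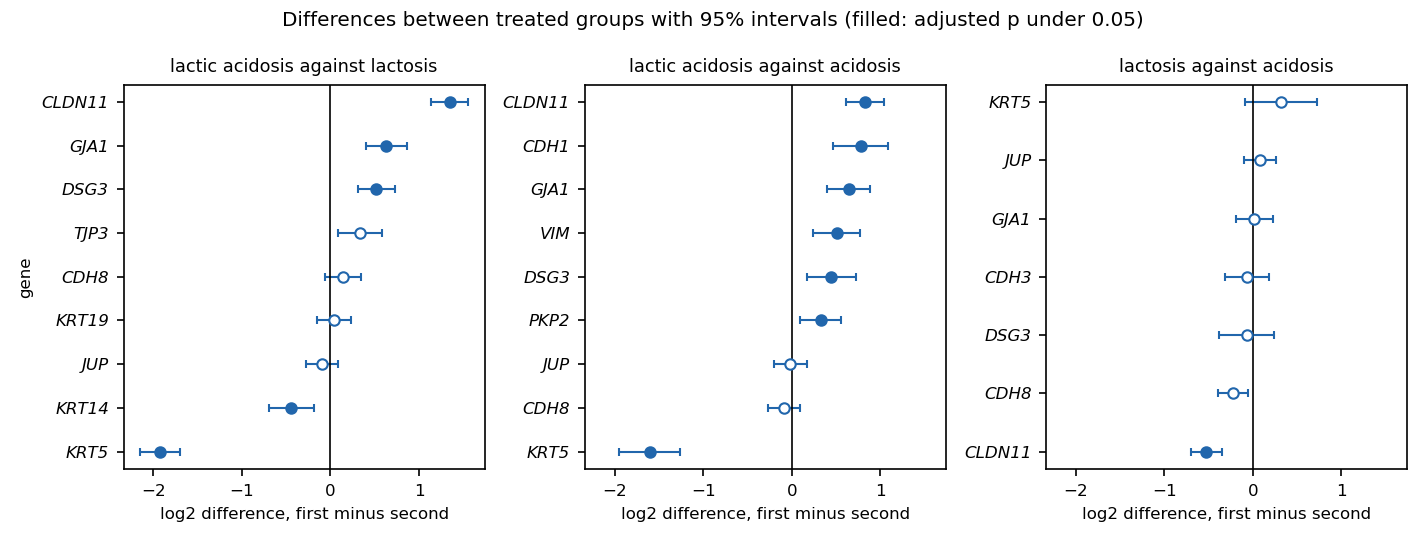
Log2 difference between treated groups, first named minus second (horizontal axis, limma on log2(value + 1)), with 95% intervals for members listed in both tables and filled points for an adjusted p under 0.05. KRT5 lies near -1.93 and -1.61 in the comparisons of lactic acidosis, CLDN11 differs in all 3 panels, and the JUP intervals span 0 in each.

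Genes that work beside these members were read as lists. Of 12 plakin and hemidesmosome genes, which anchor keratins to the basement membrane, 8 were listed in lactic acidosis, while lactosis had 5 and acidosis 1, all higher and all past limma. Over all listed genes 58.9%, 59.3% and 61.1% were higher and 86.1%, 77.7% and 60.0% were past limma in the same order. The laminin chain LAMA3 read 71.1, 83.8 and 77.9 in lactic acidosis and 49.6, 38.9 and 58.9 in lactosis, against 20.6, 29.3 and 26.7 in control, with no overlap in either treatment. In the authors' deposited table another laminin chain, LAMB3, stood at log2 1.27 over control in lactic acidosis and 0.66 in lactosis, and the integrin ITGA6 stood at 1.09 and 0.55. A list of transcription and splicing factors linked to the epithelial or mesenchymal state held 20 genes. Of these, 5 of 6 listed in lactic acidosis were lower, as were 4 of 4 in lactosis and 2 of 2 in acidosis. Over all listed genes 41.1%, 40.7% and 38.9% were lower in the same order. Those lower and past limma were 5, 4 and 1, beside 86.1%, 77.7% and 60.0% of all listed genes past limma in either direction. No gene of the list rose past limma. Epithelial factors and SNAI3 were both among those that fell, and genes without a row could not be read. SNAI3, of the Snail family known for the mesenchymal state, read 0.46, 0.08 and 0.06 in lactic acidosis and 0.13, 0.00 and 0.10 in lactosis, against 2.10, 2.12 and 2.09 in control, and fell in both (limma adjusted p = 0.000205 and 9.7e-05). The epithelial splicing factor ESRP1 fell in lactic acidosis by a log2 difference of 1.11 (limma adjusted p = 0.000816), and ESRP2 was listed higher there with a log2 difference of 0.28 that did not pass (0.0751). ELF3, an epithelial ETS factor, read 7.96, 6.84 and 7.04 in lactic acidosis and 6.46, 6.65 and 5.34 in lactosis, against 56.7, 49.3 and 35.2 in control, with no overlap. In the authors' deposited table KLF4 had log2 fold changes of -0.81 (lactic acidosis), -1.27 (lactosis) and -1.09 (acidosis), and EHF had -0.52, -0.95 and -0.37.

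Fewer genes were listed among the partners of cadherins and claudins. Of 14 catenin and nectin genes 2 were listed in lactic acidosis (1 higher, 1 lower), 1 in lactosis (lower) and 1 in acidosis (higher). In the authors' deposited table ARVCF, a catenin of the p120 family, had a log2 fold change of -1.01 in lactic acidosis and -0.97 in lactosis. Of 24 polarity and junctional adhesion genes 3 were listed in each table, with 2 higher in lactic acidosis and 1 higher in each of the others. CGNL1, a cingulin-like tight junction protein, had a log2 fold change of 1.28 in lactic acidosis in the authors' deposited table. Of 21 intermediate filament and cornified envelope genes 3, 4 and 1 were listed in lactic acidosis, lactosis and acidosis.

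Some libraries stood apart. Of 15 striated muscle markers 7 were listed in lactosis, all higher, and their summed value was 0.49, 56.0 and 0.53 in lactosis libraries 1 to 3, against 0.88, 0.66 and 1.50 in control. In lactic acidosis 9 were listed, 6 higher and 3 lower, summing to 18.7, 55.5 and 17.0 against 38.4, 49.9 and 57.8 in control, and ACTA1, skeletal muscle actin, read 0.43, 19.7 and 0.56 against 0.58, 0.35 and 1.03. No member is on that list, and the part of this signal in the member values was not tested. Leaving out lactosis replicate 2 gave 10 members past limma in lactosis, as with it, and leaving out lactic acidosis replicate 2 gave 18 instead of 22 in lactic acidosis. Shares over all listed genes without these libraries are not given, so the loss cannot be read as particular to the members. Of 12 epidermal markers the listed ones were KRT5 and KRT14, and of the leukocyte, hepatocyte and endothelial markers 1 gene each had a row, CD68 and SERPINA1 in lactic acidosis and PECAM1 in acidosis, all higher. When values were rescaled by library weights fitted to the authors' group means, which puts control replicates 2 and 3 at 0.77 to 0.80 of control replicate 1, no member's groups overlapped in any table, beside 99.2% of all listed genes without overlap for lactic acidosis, 98.9% for lactosis and 99.4% for acidosis. The rescaling shifted the median log2 difference of all listed genes by 0.11 for lactic acidosis, with the deposited values the higher ones, by 0.03 for lactosis and by 0.01 for acidosis, and it turned the direction of no member against control.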

How the data were processed

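Each of the 3 tables that the authors deposited compares 1 treated group with the same 3 control libraries. The labels give poly(A) selection and single-end reads of 75 nt. STAR and hg38 appear in the submitters' processing notes, and the counting tool is not given in the sources used here. Library values in the deposited tables are a signal scaled by gene length and library size, with TPM or FPKM not stated, and group means are a signal of counts over size factors. The fold change that the authors deposited is a ratio with control on top, inverted here. Their deposited posterior probability of equal expression, a fraction, was under 0.05 for every listed gene. Library totals are not given, so depth is unknown and no counting interval was set. Control values were the same in each table (largest difference 0).

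From these values limma 3.58.1 (R 4.3.3) was run on log2(value + 1) for the 6 libraries of each comparison, two-sided and without a filter, with a threshold of 0.05. For treated groups against each other it covered genes listed in both tables. Alternatives were pseudocounts of 0.1 and 5, a mean of at least 1, a replicate block, rescaled libraries and leaving out each library, and for the authors' lists a probability under 0.01, a 2-fold change and a mean of at least 1. Overlap with other genes is the share of 75-base windows of the longest coding transcript found in another gene's transcripts (GENCODE 29). Values per library are given for canonical epithelial and mesenchymal genes, members listed in all tables, the 5 largest rises and falls per table and members of opposite direction, and PKP2 in all its tables. The members and lists were chosen with earlier results of these data known, so they are not independent evidence of a direction. A few listed genes are included in the counts but are not reported here by name.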

Additional observations from a re-analysis of the deposited data

Results flagged for a closer look

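E-cadherin (CDH1) stood out because the authors' deposited tables list it in opposite directions from control in the 2 acid groups. It was listed higher in lactic acidosis and lower in acidosis. The direct comparison gave a log2 difference of 0.78 for lactic acidosis minus acidosis (limma adjusted p = 0.00155), with all 3 lactic acidosis libraries above all 3 acidosis libraries. The flag required opposite listings and an adjusted p under 0.05 in that comparison, so this p-value is not separate support. Opposite listings against the same controls also favour such a separation. The rise in lactic acidosis passed limma (adjusted p = 0.0288), but not without lactic acidosis replicate 1, 2 or 3 (0.0527, 0.105 and 0.0788). The difference of acidosis from control did not pass limma on the deposited values (adjusted p = 0.0878), where the groups overlapped. It passed on rescaled values (log2 difference -0.38, limma adjusted p = 0.00879) and without control replicate 1 (0.0234). Among all genes listed in 2 or 3 tables, 34 of 2737 (1.24%) were listed in opposite directions. Of the 14 members listed in 2 or 3 tables, 1 was listed in opposite directions, which was CDH1.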

How the results depend on the processing

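Over the tests of single members and the alternatives, 782 values kept their direction and their side of the threshold, 39 lost the threshold, 21 gained it and 11 turned in direction. All 11 were differences between treated groups that did not pass. For lactic acidosis minus lactosis, KRT19 was at -0.040 on rescaled values and between -0.0060 and 0.11 when 1 library was left out. For lactic acidosis minus acidosis, JUP was between -0.075 and 0.030 when 1 library was left out. For lactosis minus acidosis, GJA1 was at -0.0042 on rescaled values, and with 1 library left out GJA1 was between -0.048 and 0.080, CDH3 between -0.15 and 0.019 and DSG3 between -0.19 and 0.062. The cause was not tested. A 2-fold minimum in the authors' deposited tables by its construction left 15 members in lactic acidosis, 9 in lactosis, 5 in acidosis. Leaving out 1 library at a time gave 17 to 24 members past limma in lactic acidosis, 10 to 13 in lactosis and 5 to 11 in acidosis, and 5 to 7, 6 to 8 and 2 to 3 for lactic acidosis against lactosis, lactic acidosis against acidosis and lactosis against acidosis. A pseudocount of 5 gave 17, 9 and 7 against control, and rescaled values gave 24, 13 and 11. Shares of all listed genes past limma are not given for the leave-out, pseudocount, rescaled and block settings. Such shifts therefore cannot be read as particular to the members. For same-numbered libraries of treated and control groups, deviations from the group means had correlations between -0.26 and 0.155. With 3 libraries per group this cannot tell whether same-numbered libraries shared a batch or preparation. With the replicate block 22, 10 and 7 members passed against control and 6, 8 and 2 between treated groups, and CDH8 in acidosis was the call lost (log2 difference -0.42, limma adjusted p = 0.112). Depth is unknown, and 7 members in lactic acidosis and 1 in each of the other treatments had authors' mean counts under 100 in both groups.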

Other observations

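Several pairs of related genes that the report gives singly changed their proportion within a library, read after the values were seen and without a test. CLDN11 was 17.1, 20.6 and 18.8 times CLDN3 in lactic acidosis, against 0.119, 0.721 and 1.24 times in control. The claudin with the higher value was thus CLDN11 in every lactic acidosis library and in 1 of 3 control libraries. The ratio rests on low counts of CLDN3, with authors' means of 11.9 in lactic acidosis and 66.6 in control. KRT17 was 0.427, 0.472 and 0.462 times KRT19 in lactosis, against 0.224, 0.157 and 0.140 times in control. KRT6A was 1.07, 1.25 and 1.54 times KRT5 in lactosis, against 0.188, 0.190 and 0.240 times in control. The ranges did not overlap in any of these 3 pairs.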
